A study of Rattus norvegicus with 36 samples.

Results

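MiR-378a-3p, miR-378a-5p, miR-378b and miR-365-3p are 4 of the 835 microRNA names measured by small RNA sequencing in the rat thoracic aorta. They were taken by name, as microRNAs that mark fat and oxidative tissue. The libraries came from male Dahl salt-sensitive rats (SS) and from congenic SS rats in which a piece of chromosome 2 comes from the Brown Norway (BN) rat, namely its distal part in the S2Ba strain and a middle stretch in the S2Bb strain. All 3 strains received either normal salt (NSD) or high salt (HSD), the latter with 4% NaCl, from 4 to 6 until 12 to 13 weeks of age. Every group, the SS controls included, therefore has the salt-sensitive background, and a congenic strain differs from SS by a chromosome segment with many genes. Each diet had 5 usable libraries of SS, 5 of S2Ba and 6 of S2Bb, which made 32. Nothing in the labels says that animals were pooled, or whether the fat around the vessel was removed.

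The miR-378a hairpin lies in an intron of Ppargc1b, the gene of the coactivator PGC-1β, and is made together with that regulator of mitochondrial and fat metabolism. Its 3p arm is the abundant guide strand and its 5p arm, also called miR-378*, the rarer partner. In mouse and human cells both arms have been tied to lipid storage, oxidative metabolism and brown fat. MiR-365 is encoded beside a miR-193 hairpin, and in mouse miR-193b and miR-365 have been described as regulators of brown fat differentiation. The thoracic aorta of rodents is wrapped in perivascular fat that resembles brown fat, so a piece of aorta can hold RNA of both vessel wall and fat. None of these microRNAs is confined to fat, since miR-378a is also abundant in heart and skeletal muscle.

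The mature sequences are shown for their seeds, the bases that pair with targets. They are from RefSeq on the GRCr8 build, written 5′ to 3′ with the seed (bases 2 to 8) in capitals. RefSeq held a mature sequence for 3 of the 4 members. It held none for miR-378b, so the seed of miR-378b was not compared with the others. MiR-193-3p, listed there as miR-193a-3p, is added as the genomic neighbour of miR-365-3p.
miR-378a-3p: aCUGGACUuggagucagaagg
miR-378a-5p: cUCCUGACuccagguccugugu
miR-365-3p: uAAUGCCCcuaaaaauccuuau
miR-193-3p: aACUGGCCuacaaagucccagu
The 4 seeds shown differ from one another. Among the 693 mature names of the RefSeq table, which lack miR-378b, 0 others share the seed of either miR-378a arm or of miR-365-3p. Only miR-193b-3p shares that of miR-193-3p. MiR-378a-3p lies at chr18:57128925-57128945 and miR-378a-5p at chr18:57128962-57128983, both on the minus strand within the span of Ppargc1b, and another microRNA gene, Mir3557, is annotated on the opposite strand there. MiR-365-3p lies at chr10:65184271-65184292 on the plus strand, from the gene Mir365b. MiR-193-3p lies upstream on the same strand at chr10:65170370-65170391, with 13814 bases between the hairpins, and both are within the span of Faul2. The gene Mir193b is annotated elsewhere on chromosome 10, with 63359190 bases between it and Mir365b. Mir378b is placed on chromosome 5, within the span of Ncoa2, a nuclear receptor coactivator. None of the members is encoded on chromosome 2, where the congenic segments lie.

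Values are the authors' normalized signal in reads per M reads, where M stands for mega (nRPM). Depth, recovered from the values, ran from 2.31 to 42.4 M reads with a median of 19.4. The shallowest library, SS high-salt replicate 2, stood apart, with 338 of 835 names at 0. SS normal-salt replicate 6 followed with 6.56 M reads. In these shallow libraries 3 reads were worth up to 0.941 nRPM. Each member had at least 44 reads in every library, so none was at 0. The columns of replicate 1 of SS and of replicate 4 of S2Ba, both on normal salt, were identical throughout. They were left out, and the shared column read 939 nRPM for miR-378a-3p, 4.07 for miR-378a-5p, 20.2 for miR-378b and 63.5 for miR-365-3p, each within or just below the range of the other 32 libraries.

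The 4 microRNAs were present in every aorta, at levels that differed far more between members than between rat groups. MiR-378a-3p was the most abundant, at 1224 nRPM on average over the 32 libraries and rank 37 of 835 names. MiR-365-3p followed with a mean of 83.2 nRPM and rank 98, miR-378b with 20.5 nRPM and rank 155, and miR-378a-5p with 9.04 nRPM and rank 213. Between the highest and the lowest library, miR-378a-3p varied 2.82-fold, miR-365-3p 3.35-fold, miR-378b 3.70-fold and miR-378a-5p 4.21-fold. The signal of miR-378a-3p was 0.120% of the total. These are levels of a piece of tissue, in which fewer cells of a type and less RNA per cell cannot be told apart.

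**Figure D1:**
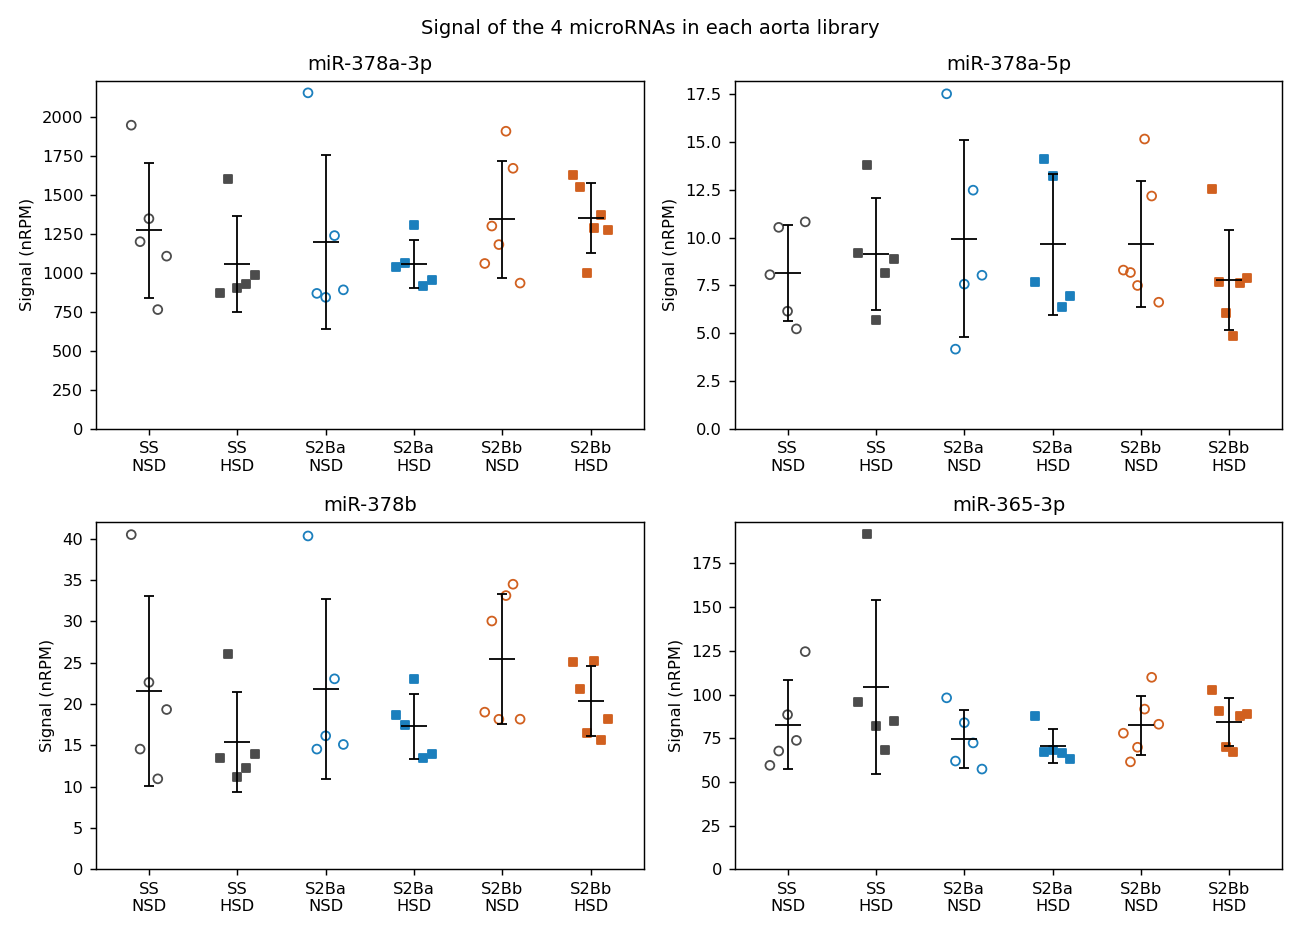
Signal of the 4 microRNAs in each of the 32 libraries, in nRPM, by strain and diet. Open circles are normal salt, filled squares high salt, and bars the mean ± SD of 5 or 6 libraries. For each microRNA all 6 groups overlap, and SS high-salt replicate 2 has the highest miR-365-3p value, 192 nRPM.

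MiR-378a-3p, the guide strand of the Ppargc1b intron, had closely spaced group means. On normal salt its values in SS replicates 2 to 6 were 1950, 1202, 1349, 765 and 1109 nRPM, and those of S2Ba replicates 1, 2, 3, 5 and 6 were 2158, 869, 844, 1241 and 892. S2Bb on normal salt ran from 936 through a median of 1242 to 1911 nRPM. A single high library stood above the others in SS and in S2Ba on this diet, while S2Bb was spread more evenly. On high salt SS replicates 1, 2, 4, 5 and 6 had 872, 1604, 903, 929 and 990 nRPM, and S2Ba replicates 1, 3, 4, 5 and 6 had 1039, 1067, 1307, 919 and 958. S2Bb on high salt ran from 1002 through 1334 to 1629 nRPM. Apart from the shallow replicate 2, the SS libraries on high salt all lay below the lowest S2Bb library of that diet.

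The group means of miR-378a-3p, from high to low, were 1355 ± 223 (SD, n = 6) in S2Bb on high salt, 1344 ± 375 (n = 6) in S2Bb on normal salt, 1275 ± 434 (n = 5) in SS on normal salt, 1201 ± 559 (n = 5) in S2Ba on normal salt, 1060 ± 307 (n = 5) in SS on high salt and 1058 ± 151 (n = 5) in S2Ba on high salt. The values of each group overlapped those of its neighbours in that order, and the highest mean was 1.28-fold the lowest. High against normal salt gave log2 differences of -0.24 ± 0.24 (SE) in SS, -0.09 ± 0.24 in S2Ba and 0.04 ± 0.22 in S2Bb, with limma adjusted p of 0.606, 0.960 and 0.941. The SS difference of miR-378a-3p was -0.07 without normal-salt replicate 2, its highest library. The widest difference was between S2Bb and SS on high salt, 0.38 ± 0.23 on the log2 scale, with a limma adjusted p of 0.434. The row miR-n146 held the same value as miR-378a-3p in 32 of 32 libraries, so it is a copy of that row and not a further measurement.

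MiR-378a-5p, the rarer arm of the same hairpin, was the lowest of the 4 and had the widest ratio of highest to lowest library. In SS its values on normal salt were 8.06, 10.5, 6.15, 5.23 and 10.8 nRPM, and on high salt 9.18, 13.8, 5.68, 8.16 and 8.88, in the replicate order given above. S2Ba had 17.5, 4.17, 7.57, 12.5 and 8.03 nRPM on normal salt and 7.66, 14.1, 13.2, 6.39 and 6.95 on high salt. The S2Ba normal-salt libraries held both the highest and the lowest value of the series. S2Bb ran from 6.62 through 8.24 to 15.2 nRPM on normal salt and from 4.84 through 7.66 to 12.5 on high salt. All 6 groups overlapped. Group means were 9.96 ± 5.17 (SD, n = 5) and 9.66 ± 3.69 (n = 5) in S2Ba, 9.66 ± 3.30 (n = 6) and 7.77 ± 2.62 (n = 6) in S2Bb and 8.16 ± 2.52 (n = 5) and 9.14 ± 2.95 (n = 5) in SS, normal before high salt. The highest was 1.28-fold the lowest, and the values of neighbouring groups in the order overlapped. The diet differences on the log2 scale were 0.15 ± 0.29 (SE) in SS, 0.03 ± 0.29 in S2Ba and -0.28 ± 0.27 in S2Bb, with limma adjusted p of 0.823, 0.995 and 0.672. The S2Bb difference of miR-378a-5p was -0.15 without normal-salt replicate 4, its highest library on that diet.

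MiR-378b is encoded elsewhere in the genome, and its row followed that of miR-378a-3p at a lower level. Its values on normal salt were 40.5, 14.5, 22.6, 10.95 and 19.3 nRPM in SS and 40.3, 14.5, 16.2, 23.05 and 15.1 in S2Ba. On high salt they were 13.4, 26.03, 11.1, 12.3 and 13.98 nRPM in SS and 18.7, 17.4, 22.98, 13.5 and 13.9 in S2Ba. In SS and S2Ba, on both diets, the library with the highest miR-378b of its group also had the highest miR-378a-3p. S2Bb ran from 18.2 through 24.5 to 34.5 nRPM on normal salt and from 15.6 through 20.04 to 25.2 on high salt. The mean was lower on high salt in each strain, 15.4 ± 6.06 (SD, n = 5) against 21.6 ± 11.5 (n = 5) in SS, 17.3 ± 3.89 (n = 5) against 21.8 ± 10.9 (n = 5) in S2Ba and 20.4 ± 4.23 (n = 6) against 25.5 ± 7.86 (n = 6) in S2Bb. The S2Bb normal-salt mean was the highest of the 6 and 1.66-fold the lowest, that of SS on high salt, and the values of neighbouring groups in the order overlapped. On the log2 scale they were -0.40 ± 0.29 (SE), -0.24 ± 0.29 and -0.28 ± 0.26, with limma adjusted p of 0.456, 0.846 and 0.669. Without SS normal-salt replicate 2 the SS difference of miR-378b was -0.14, and without S2Ba normal-salt replicate 1 the S2Ba difference was 0.0034. The S2Bb difference was -0.18 without normal-salt replicate 5.

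MiR-365-3p, encoded beside miR-193-3p, had its highest value in the shallowest library. On normal salt the SS replicates had 59.5, 67.7, 88.5, 73.8 and 125 nRPM and the S2Ba replicates 98.1, 62.0, 83.9, 72.3 and 57.4. On high salt the SS values were 95.5, 192, 81.8, 68.4 and 84.8 nRPM, and the S2Ba values 87.5, 67.2, 68.3, 66.3 and 63.0. The 2 highest libraries of the series were the 2 shallowest ones, SS high-salt replicate 2 and SS normal-salt replicate 6. S2Bb ran from 61.5 through 80.4 to 110 nRPM on normal salt and from 67.1 through 88.1 to 103 on high salt. Group means, normal before high salt, were 82.8 ± 25.6 (SD, n = 5) and 104 ± 49.8 (n = 5) in SS, 74.7 ± 16.6 (n = 5) and 70.5 ± 9.75 (n = 5) in S2Ba and 82.3 ± 17.05 (n = 6) and 84.4 ± 13.6 (n = 6) in S2Bb. The highest mean, that of SS on high salt, was 1.48-fold the lowest, that of S2Ba on high salt, and the values of neighbouring groups in the order overlapped. The diet differences on the log2 scale were 0.28 ± 0.22 (SE) in SS, -0.07 ± 0.22 in S2Ba and 0.04 ± 0.20 in S2Bb, with limma adjusted p of 0.486, 0.965 and 0.938. Without SS high-salt replicate 2 the SS difference was 0.04.

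The comparisons asked how salt and each chromosome 2 segment change aortic microRNAs, and none gave a call for a member. A call is an adjusted p under 0.05, Benjamini-Hochberg over the 484 microRNAs tested. Of 48 tests, 4 members in 12 comparisons, limma called 0, and 1 had an unadjusted p under 0.05. EdgeR and DESeq2 on the recovered reads also called 0, each with 1 at an unadjusted p under 0.05, the same test as in limma. Limma-voom with sample weights called 0, with 3 at an unadjusted p under 0.05. These were miR-378a-3p and miR-378b in S2Bb against SS and miR-365-3p in S2Bb against S2Ba, all on high salt. The limma test, described next, was not among them. The single limma test was miR-365-3p in S2Ba against SS on high salt, with a log2 difference of -0.47 ± 0.22 (SE), with a 95% interval from -0.91 to -0.03, an unadjusted p of 0.0391 and a limma adjusted p of 0.267. The groups overlapped, and that SS group holds the shallow library with 192 nRPM, without which the difference for miR-365-3p was -0.23.

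The share of all tested microRNAs called gives the background for these counts of 0. For high against normal salt limma called 1.03% in SS, 0.826% in S2Ba and 5.99% in S2Bb. On normal salt it called 0.413% for S2Ba against SS, 0.826% for S2Bb against SS and 3.51% for S2Bb against S2Ba. On high salt it called 0.207% for S2Ba against SS and 0% for both comparisons of S2Bb, with 56 microRNAs at an unadjusted p under 0.05 against SS and 44 against S2Ba. In those comparisons edgeR made 0 and 0 calls, DESeq2 0 and 7, and limma-voom 3 and 32. For the difference of salt responses limma called 0.413% for S2Bb minus SS, 0% for S2Ba minus SS and 0% for S2Bb minus S2Ba, the last pair with 36 and 20 at an unadjusted p under 0.05. For that pair edgeR and limma-voom called 0 each, and DESeq2 3 and 1. With so few calls over all microRNAs, 0 of 4 members lies near the background in each comparison.

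**Figure D2:**
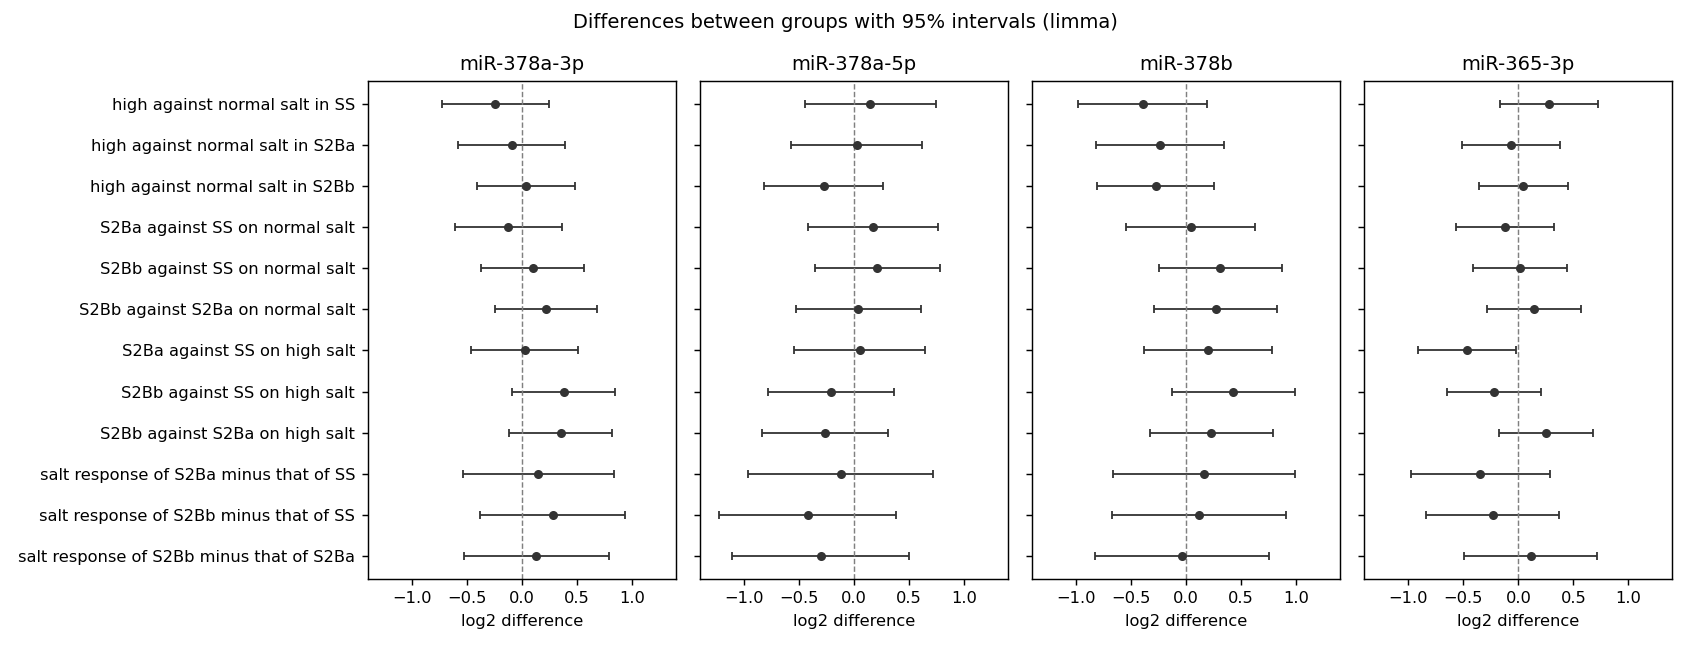
Log2 differences of the 4 microRNAs in 12 comparisons with their 95% limma intervals, on the log2(value + 1) scale. Points to the right of 0 are higher in the first-named group or diet. Of the pairwise intervals only miR-365-3p in S2Ba against SS on high salt leaves out 0, and it was not called after adjustment (limma adjusted p 0.267).

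Over the 9 pairwise comparisons the 95% intervals reached from 0.604-fold to 1.79-fold for miR-378a-3p, from 0.562-fold to 1.72-fold for miR-378a-5p, from 0.507-fold to 1.98-fold for miR-378b and from 0.530-fold to 1.65-fold for miR-365-3p. These are the outermost limits over the comparisons, and the absence of a call does not show that the groups were alike. The differences between strains in the response to salt were small against their errors, and the largest was that of miR-378a-5p in S2Bb minus SS, -0.42 ± 0.39 (SE) on the log2 scale with a limma adjusted p of 0.789. It was -0.27 without SS high-salt replicate 2. The strain comparisons on one diet share groups and are not independent of one another. The spread within groups, pooled on the log2 scale, was 0.39 for miR-378a-3p, 0.48 for miR-378a-5p, 0.47 for miR-378b and 0.35 for miR-365-3p, against a median of 0.38 over all tested microRNAs. Groups accounted for 14.7%, 5.88%, 21.1% and 17.4% of the variance of miR-378a-3p, miR-378a-5p, miR-378b and miR-365-3p, against a median of 25.6% over all tested. Such a share is positive even where groups do not differ, so these values are descriptions and show no group effect.

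The miR-378 rows varied together from library to library, also within groups. Over 32 libraries miR-378a-3p and miR-378b correlated with a Pearson r of 0.89 and a Spearman rho of 0.86. The permutation p was 1e-05 for both, the smallest that 100000 resamples can give, or 0.00043 after adjustment over the 43 relations computed. Pearson's r was 0.85 without the libraries farthest from the median, replicate 2 of SS and replicate 1 of S2Ba on normal salt, and 0.92 for deviations from the group means. The rows share libraries and scaling, and the sources used here do not say how reads were assigned between these rows. With log10 depth, r over the libraries was -0.26 for miR-378a-3p, -0.28 for miR-378a-5p and -0.20 for miR-378b. The adjusted permutation p were 0.297, 0.293 and 0.429. For deviations from the group means these r were -0.48, -0.36 and -0.51. The part of depth in the shared variation was not tested.

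MiR-378a-3p and its partner arm miR-378a-5p correlated less closely, with r of 0.60 (adjusted permutation p 0.00301) and rho of 0.54 (adjusted p 0.0196). That r was 0.58 without the 2 farthest libraries. MiR-378a-5p and miR-378b had r of 0.54 (adjusted permutation p 0.00964) and rho of 0.49 (adjusted p 0.0391), and r was 0.39 without the 2 farthest. S2Ba normal-salt replicate 1 was among the 5 highest libraries for 4 of 4 members. MiR-365-3p went with the miR-378 rows only in part. Its r was 0.36 with miR-378a-3p (adjusted permutation p 0.122), 0.26 with miR-378b (adjusted p 0.297) and 0.45 with miR-378a-5p (adjusted p 0.0413). For the last pair rho was 0.39 with an adjusted permutation p of 0.120. SS normal-salt replicate 2, for example, ranked 1 of 32 for miR-378b and 31 for miR-365-3p.

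**Figure D3:**
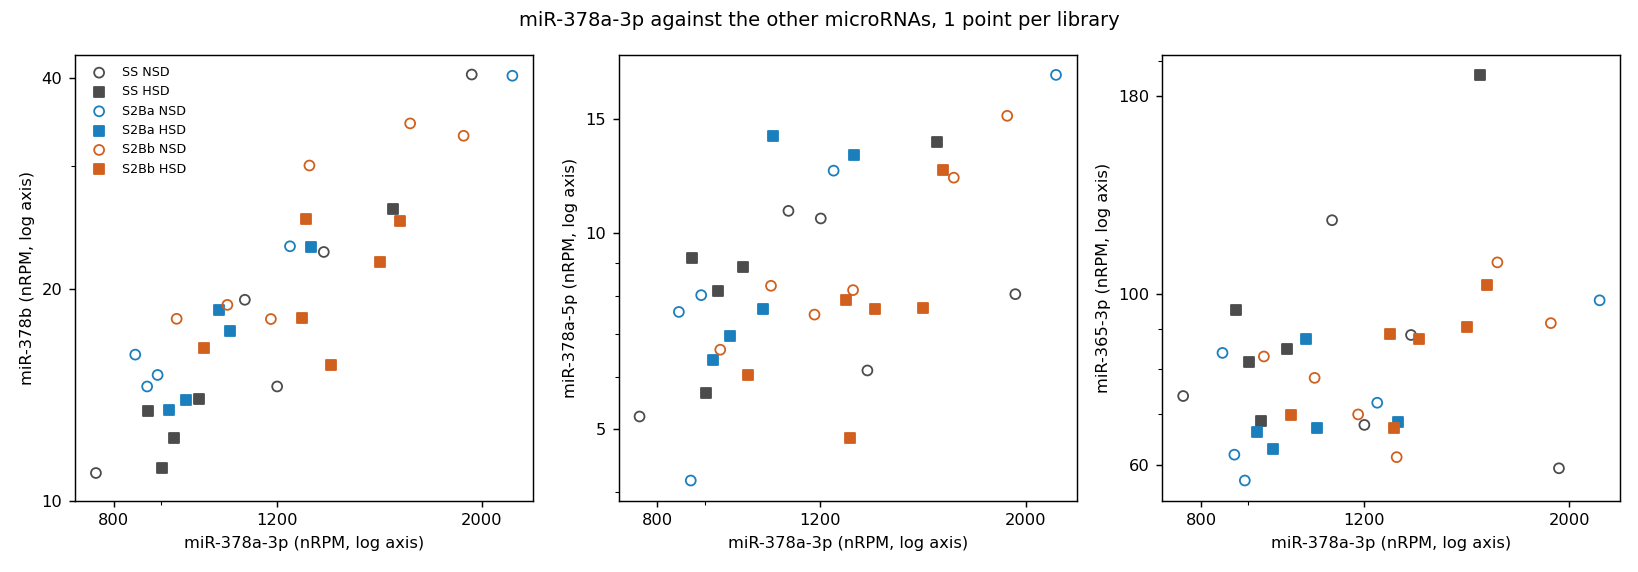
Signal of miR-378a-3p on the x axis against each of the other members on the y axis, in nRPM on log axes, for 32 libraries. Open circles are normal salt and filled squares high salt. The miR-378b points follow a line (r 0.89), those of miR-378a-5p scatter more (r 0.60) and those of miR-365-3p most (r 0.36).

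The ratio of the arms compares strands of a single hairpin and does not depend on scaling between libraries. Per 1000 nRPM of miR-378a-3p there were between 3.75 and 13.2 nRPM of miR-378a-5p, with a median of 7.32. Means were 6.81 ± 2.49 (SD, n = 5) and 8.63 ± 1.52 (n = 5) in SS, 8.19 ± 2.02 (n = 5) and 8.98 ± 2.69 (n = 5) in S2Ba and 7.12 ± 0.707 (n = 6) and 5.69 ± 1.32 (n = 6) in S2Bb, normal before high salt. S2Bb on high salt had the lowest mean of the 6 groups, with values from 3.75 through 5.79 to 7.69, and it overlapped each other group.

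Of 9 pairwise tests of the log2 arm ratio, 3 had an unadjusted p under 0.05, and all 3 involve S2Bb on high salt. The difference from SS on high salt was -0.62 (two-sided exact permutation p 0.00866, adjusted 0.0779) and that from S2Ba on high salt was -0.64 (exact p 0.0173, adjusted 0.0779). High against normal salt within S2Bb gave -0.35 (exact p 0.0368, adjusted 0.110). None passed after adjustment over the 9 comparisons, and the smallest p the designs allow is 0.00794 for 5 against 5 libraries, 0.00433 for 5 against 6 and 0.00216 for 6 against 6. Without S2Bb high-salt replicate 1, the highest of its group, all 3 had an adjusted exact p of 0.0238, with differences of -0.71, -0.74 and -0.44. Without S2Ba normal-salt replicate 2, the library with the lowest arm ratio of its group, S2Bb against S2Ba on normal salt moved from -0.16 to -0.35 and its adjusted exact p from 0.662 to 0.0429. Calls for this ratio thus turn on single libraries.

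MiR-378b per 1000 nRPM of miR-378a-3p kept to a narrower range, from 11.4 to 23.1 over the 32 libraries with a median of 16.6. Group means lay between 14.3 ± 1.58 (SD, n = 5) in SS on high salt and 18.9 ± 2.71 (n = 6) in S2Bb on normal salt. In each strain the mean was lower on high salt, 14.3 against 16.3 in SS, 16.2 against 18.01 in S2Ba and 15.2 against 18.9 in S2Bb, given here as a description without a test.

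**Figure D4:**
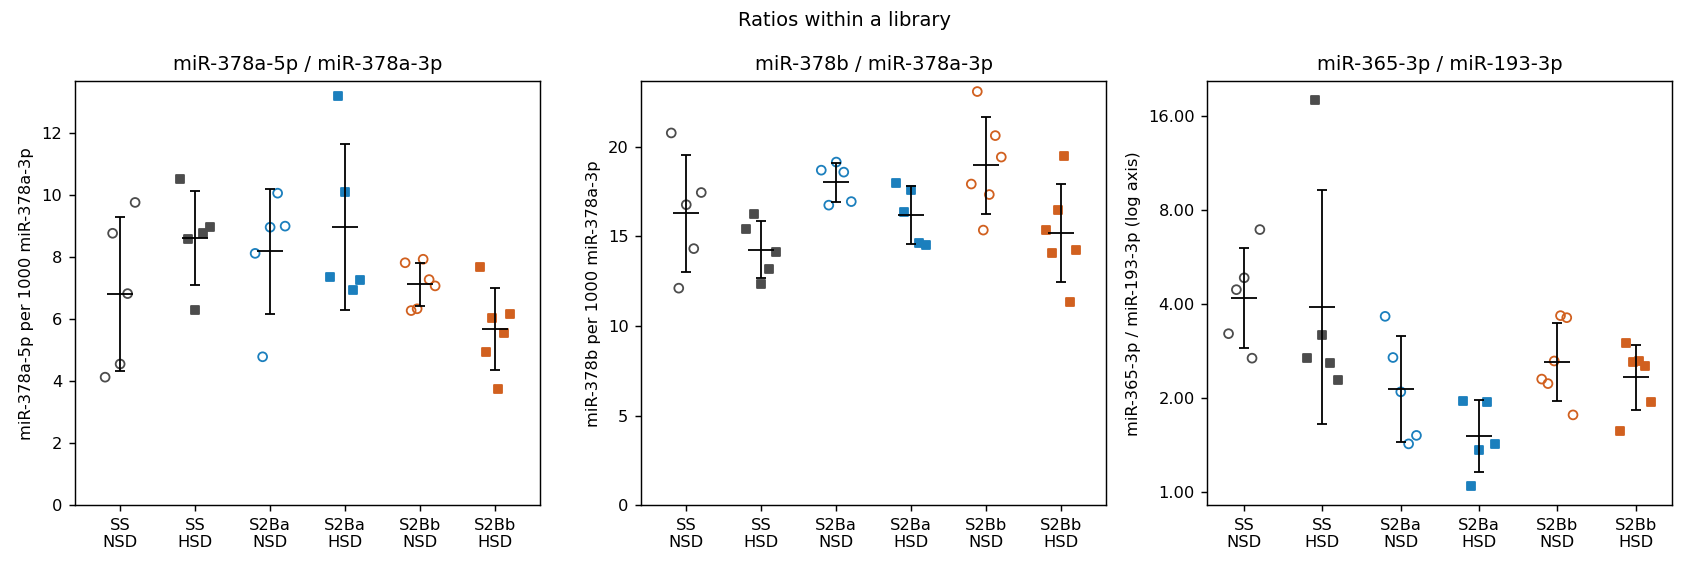
Ratios within a library by strain and diet, as miR-378a-5p per 1000 miR-378a-3p, miR-378b per 1000 miR-378a-3p, and miR-365-3p over miR-193-3p on a log2 axis. Points are libraries and bars the mean ± SD, of the log2 ratio in the last panel. S2Bb on high salt has the lowest mean arm ratio, 5.69, and SS high-salt replicate 2 has a miR-365-3p to miR-193-3p ratio of 18.

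The neighbour miR-193-3p showed no detectable relation to miR-365-3p. It averaged 33.3 nRPM over the 32 libraries, with group means of 19.5 ± 4.66 (SD, n = 5) and 26.97 ± 10.5 (n = 5) in SS, 35.6 ± 11.03 (n = 5) and 47.3 ± 11.04 (n = 5) in S2Ba and 31.7 ± 8.09 (n = 6) and 37.9 ± 15.2 (n = 6) in S2Bb, normal before high salt. Over the libraries its r with miR-365-3p was -0.29 (adjusted permutation p 0.293), with a rho of -0.03, and r was 0.18 without the 2 shallowest libraries. Against SS on high salt, S2Ba had 0.87 ± 0.27 (SE) more on the log2 scale, with a limma adjusted p of 0.0957, while miR-365-3p had the lower value given above.

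The ratio of miR-365-3p to miR-193-3p had medians of 4.46 in SS, 2.10 in S2Ba and 2.46 in S2Bb on normal salt and of 2.70, 1.43 and 2.58 on high salt. In SS on high salt the values were 2.70, 18, 3.2, 2.60 and 2.29, and in S2Ba on high salt 1.96, 1.05, 1.37, 1.95 and 1.43. These groups did not overlap. The log2 difference, S2Ba minus SS, was -1.38 with an exact permutation p of 0.00794, the smallest that 5 against 5 allows, and an adjusted p of 0.0714. Without SS high-salt replicate 2 the difference was -0.83. On normal salt S2Ba minus SS was -0.97 (exact p 0.0397, adjusted 0.0974), and S2Bb minus SS was -0.68 (exact p 0.0433, adjusted 0.0974). On high salt S2Bb minus S2Ba was 0.63 (exact p 0.0260, adjusted 0.0974). None of the 9 passed after adjustment. Of the other strands of this cluster, miR-193-5p averaged 1.19 nRPM, and miR-365-5p averaged 0.0589 nRPM and was at 0 in 14 of 32 libraries. MiR-193a-3p and miR-193b-3p have no row under those names.

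Markers of other cell types were set beside the members, as the summed signal of each list in a library. MiR-365-3p correlated with the striated muscle list with r of 0.74 (adjusted permutation p 0.001) and rho of 0.59 (adjusted p 0.0129), and r was 0.43 without the 2 shallowest libraries, which are also the 2 farthest. With the smooth muscle list its r was -0.73 (adjusted permutation p 0.000645), its rho -0.55 (adjusted p 0.0173) and its r without those libraries -0.52. With depth its r was -0.67 (adjusted permutation p 0.0086), and -0.76 for deviations from the group means. Its rho with depth was -0.22 (adjusted p 0.482) and r was -0.13 without the 2 shallowest, so the r over all libraries rests on them. The smooth muscle list, led by miR-143-3p, summed to between 237274 and 742576 nRPM and was lowest in the shallow SS high-salt replicate 2. MiR-143-3p alone averaged 551217 nRPM over the 32 libraries, so the list is mostly this row and a large part of all signal. Values are scaled per M reads, and how much of any negative r with this list follows from that was not tested. The part of these lists and of depth in the miR-365-3p values was not tested.

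The striated muscle list had 7 of 7 members in the table, of which 3 passed the filter. It was led by miR-133a-3p, a heart and skeletal muscle microRNA also present in smooth muscle, with a mean of 603 nRPM. The list summed to 537 to 744 nRPM in SS, 453 to 522 in S2Ba and 584 to 712 in S2Bb on normal salt, and to 629 to 1576, 445 to 755 and 580 to 671 on high salt. The defining muscle microRNAs were near 0, with miR-1-3p at a mean of 0.615 nRPM and miR-206-3p at 0 in 28 of 32 libraries. For miR-378a-3p, which muscle also expresses, r with this list was 0.19 (adjusted permutation p 0.450).

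MiR-378a-3p went with the neuronal list, with r of 0.52 (adjusted permutation p 0.0109) and rho of 0.49 (adjusted p 0.0392), and r was 0.42 without the 2 farthest libraries. That list summed to 24.9 to 86.0 nRPM and was led by miR-128-3p and miR-138-5p, and its defining member miR-124-3p was at 0 in 17 of 32 libraries. Its group ranges overlapped, with the highest value in S2Bb on high salt. MiR-365-3p had r of -0.54 with the liver list (adjusted permutation p 0.00932), with a rho of -0.39 (adjusted p 0.120), and r was -0.35 without the 2 shallowest. MiR-122-5p, the defining liver microRNA, averaged 0.242 nRPM. MiR-378a-5p had r of -0.47 with the smooth muscle list (adjusted permutation p 0.0307) and rho of -0.35 (adjusted p 0.169). What these lists contribute to the members' levels was not tested.

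**Figure D5:**
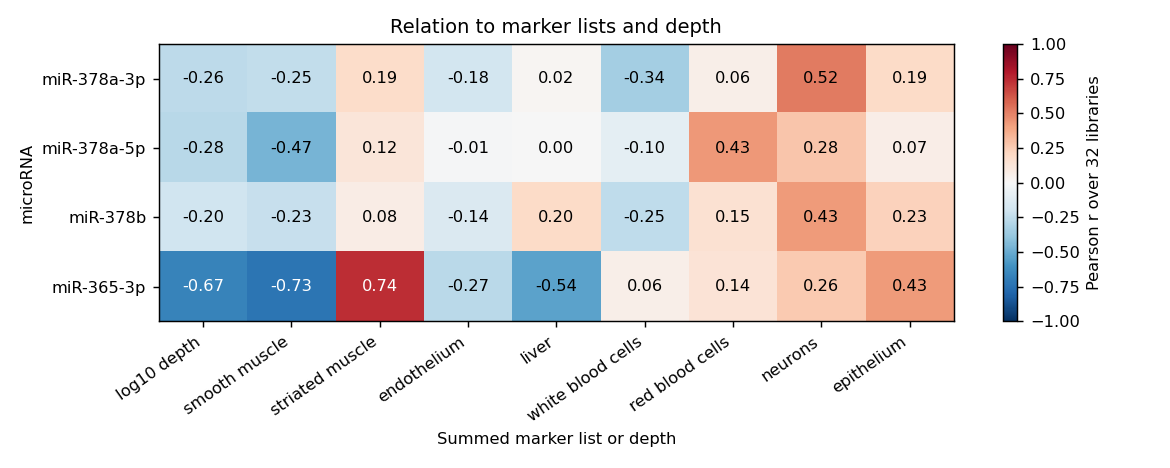
Pearson r over 32 libraries of each of the 4 microRNAs with the summed signal of each marker list and with log10 depth. Color runs from -1 to 1. The strongest values are those of miR-365-3p with striated muscle (0.74), smooth muscle (-0.73) and depth (-0.67), and 2 shallow libraries carry much of them.

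The named microRNAs most like each member across libraries were sought among 271 with a miRBase name. For miR-378a-3p they were miR-203b-3p with r of 0.63, miR-19a-3p with 0.59, miR-203a-3p with 0.58, miR-181d-5p with 0.51 and miR-331-3p with 0.46. The first 3 were also the highest for deviations from group means, with r of 0.76, 0.68 and 0.62, though miR-19a-3p averaged 0.746 nRPM. For miR-365-3p they were miR-874-3p with 0.74, miR-133a-3p with 0.73 and miR-423-5p, miR-150-5p and miR-702-3p with 0.70 each. For deviations from group means miR-150-5p and miR-342-3p with 0.83 and miR-652-3p with 0.81 led. Without the 2 shallowest libraries miR-151-5p led for miR-365-3p with 0.66 and miR-133a-3p had 0.41, whereas miR-203a-3p and miR-203b-3p still led for miR-378a-3p with 0.68 and 0.67. All share libraries, scaling and depth, and these values are descriptions.

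Other microRNAs of fat were followed as lists. Of 15 that promote thermogenic fat, 12 were in the table and 9 were tested, led by miR-26a-5p with a mean of 45989 nRPM and miR-26b-5p with 2694. On high salt in S2Bb, where 5.99% of all tested microRNAs were called, 0 of the 9 rose and 2 fell, miR-26a-5p by 0.58 ± 0.16 (SE) on the log2 scale (limma adjusted p 0.0304) and miR-455-5p by 0.59 ± 0.17 (limma adjusted p 0.0296), with a list median of -0.26 against 0.03 over all tested. MiR-455-5p went from 23.8 ± 4.50 (SD, n = 6) to 15.3 ± 1.68 (n = 6) nRPM, while miR-378a-3p in the same libraries was 1344 and 1355. In SS and S2Ba 0 of 9 were called for diet, beside 1.03% and 0.826% of all tested, with list medians of -0.21 and -0.14. MiR-196a-5p had a log2 difference of -1.79 ± 0.40 (SE) in S2Bb against SS on normal salt (limma adjusted p 0.0260), in a comparison that called 0.826% of all tested. Its means there were 0.0622 ± 0.0750 (SD, n = 6) and 4.27 ± 4.52 (n = 5) nRPM, and its median over the 32 libraries was 0.305. MiR-196a-5p was at 0 in 3 of 6 S2Bb and 1 of 5 SS libraries on normal salt. Its highest S2Bb value there was 0.175 nRPM, where 3 reads were worth 0.0769 to 0.212.

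Of 10 microRNAs that oppose thermogenic fat, 9 were tested, led by miR-27b-3p at 40900 and miR-125b-5p at 13112 nRPM. Here 1 of 9 was called, miR-133b-3p, which fell on high salt in S2Bb, the diet comparison with 5.99% called, by 0.89 ± 0.22 (SE, limma adjusted p 0.0113). MiR-133b-3p is also a member of the striated muscle list, where it was the 1 called of 3 tested, with a list median of 0.03. Of 9 adipocyte and lipid microRNAs, 8 were tested, led by miR-22-3p at 20422 and miR-103-3p at 1745 nRPM. MiR-210-3p, induced by hypoxia, was the 1 of 8 called for diet in S2Bb and fell on high salt by 0.67 ± 0.13 (SE, limma adjusted p 0.00194) and was higher in S2Bb than in S2Ba on normal salt by 0.67 ± 0.14 (limma adjusted p 0.00264). MiR-221-3p was higher in that strain comparison by 0.58 ± 0.16 (limma adjusted p 0.0316), which makes 2 of 8 beside 3.51% of all tested. In the other comparisons these 3 lists had 0 calls. The called list members were named after their values were seen, and the lists were written with earlier results of these data known.

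Marker microRNAs of other cell types were called in the same comparisons as these list members. On high salt in S2Bb, neuronal miR-138-5p rose by 2.05 ± 0.37 (SE) on the log2 scale (limma adjusted p 0.00116) and white blood cell miR-223-3p by 0.60 ± 0.18 (limma adjusted p 0.0376), 1 of 3 and 1 of 5 tested members of their lists. Smooth muscle miR-145-5p fell by 0.69 ± 0.20 (limma adjusted p 0.0379) and liver miR-192-5p by 0.64 ± 0.17 (limma adjusted p 0.0167), 1 of 4 and 1 of 2 tested members. This comparison called 5.99% of all tested. The medians of these lists were 0.64, 0.27, -0.16 and -0.29 in the order named, against 0.03 over all tested. Some members moved against the called one, with mean miR-150-5p going from 39.2 to 34.5 nRPM, miR-145-3p from 2302 to 2669 and miR-194-5p from 24.7 to 25.5. Neuronal miR-9a-5p went from a mean of 13.6 to 12.5 nRPM, though its median went from 10.5 to 11.5. Neuronal miR-128-3p moved with the called member, from a mean of 16.5 to 26.5 nRPM. In S2Bb the summed neuronal list lay between 25.3 and 51.3 nRPM on normal salt and between 35.4 and 86.0 on high salt, and the white blood cell list between 195 and 322 and between 274 and 334. The smooth muscle list lay between 509219 and 742576 nRPM on normal salt and between 446257 and 662103 on high salt, and the liver list between 502 and 665 and between 336 and 510, with the defining liver microRNA miR-122-5p at 0 in 12 of 32 libraries. In S2Bb against S2Ba on normal salt the called markers were miR-143-5p of smooth muscle with a log2 difference of 0.77 ± 0.14 (SE), endothelial miR-126a-5p with -0.92 ± 0.26, white blood cell miR-146a-5p with -0.99 ± 0.25, liver miR-194-5p with -1.04 ± 0.18 and neuronal miR-138-5p with -1.54 ± 0.39. Their limma adjusted p ran from 0.000809 to 0.0368. Each was the 1 member called of its list, with 4, 2, 5, 2 and 3 tested in that order, beside 3.51% of all tested. List medians were 0.31, -0.32, -0.24, -0.41 and 0.04 in that order, against 0.05 over all tested. The other tested endothelial, liver and neuronal members had higher means in S2Bb than in S2Ba. These were miR-126a-3p (274 against 225 nRPM), miR-192-5p (586 against 500), miR-128-3p (16.5 against 14.6) and miR-9a-5p (13.6 against 12.2). The part of these cell types in the changes of the fat lists was not tested.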

How the data were processed

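Total RNA of at least RIN 8, 1 microgram per library, was sequenced as single-end reads of 51 bp, per the labels. Tools listed in the submitters' processing notes are STAR 2.3.1, edgeR 3.6.8, R 3.2.3, FastQC and bcl2fastq 1.8.4. The sources used here give neither their roles nor a genome build or annotation. The authors deposited a normalized signal per microRNA for 34 of 36 labelled samples, and 100% of values were whole multiples of 1 step per column (tolerance 1e-06), which gave the reads. Columns summed to 0.726 to 1.30 M. On high salt, SS replicate 3 and S2Ba replicate 2 have no matching column and were not analysed here, and both columns of an identical pair were left out. The labels name no litter or batch, so p-values measure the spread between these animals. Counting error covers only part of it.

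The 484 microRNAs that reached 1 nRPM in at least 5 libraries were transformed as log2(value + 1), which understates changes of rare ones, and all 6 groups were fitted in 1 model with limma 3.58.1 (R 4.3.3) with an intensity trend. Fold changes are differences of mean log2 values. Tests are two-sided with Benjamini-Hochberg adjustment. Counts recovered from the authors' values were tested with edgeR 4.0.16 and DESeq2 1.42.0 as alternatives. Ratios were tested by exact permutation and relations with 100000 permutations (scipy 1.17.1), and the scripts were tested on simulated data. Named by rule are the members, copies of their rows, the 5 most alike by r and 3 by deviations. The 2 most abundant of each fat list and the neighbours of miR-365 were also named by rule. Called list members, and the markers given beside them, were named after their values were seen. The planned neighbour miR-193b-3p has no row, so miR-193-3p was used, chosen after the data were seen. Members and lists were chosen with earlier results of these data known.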

Additional observations from a re-analysis of the deposited data

Results flagged for a closer look

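In 42 groups of 5 or 6 values (the members, the ratios by group), 6 had a library set apart from its group by more than a Dixon test at the 95% level allows, where chance gives about 1 in 20. SS high-salt replicate 2, the shallowest library, accounts for 4 of them. It had 1604 nRPM of miR-378a-3p against 872 to 990 in the other SS high-salt libraries, 26.03 nRPM of miR-378b against 11.1 to 13.98, and 192 nRPM of miR-365-3p against 68.4 to 95.5. Its log2 ratio of miR-365-3p to miR-193-3p was 4.17, against 1.20 to 1.68. S2Ba high-salt replicate 1 had 87.5 nRPM of miR-365-3p against 63.0 to 68.3 in its group. S2Ba normal-salt replicate 2 had a log2 ratio of miR-378a-5p to miR-378a-3p of -7.71, against -6.94 to -6.63.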

How the results depend on the processing

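Under the other settings no member was called in any of 720 tests, each of 1 member in 1 comparison and 1 setting (smallest adjusted p 0.0998). Leaving out 1 library at a time gave no member call in 640 such tests (smallest 0.133). Direction held in 691 and in 582 of them, and every difference that changed sign was at most 0.24 in size on the log2 scale. MiR-378a-5p for diet in S2Ba was -0.052 with edgeR, -0.044 with DESeq2, -0.025 with limma-voom and -0.0038 with depth as a covariate. In S2Bb against S2Ba on normal salt miR-378a-5p was -0.13 with total-read scaling, -0.074 with edgeR, -0.038 with DESeq2 and -0.0073 with limma-voom. With the identical library counted as S2Ba its S2Ba minus SS salt response was 0.043. MiR-365-3p for diet in S2Bb was -0.0064 with median-of-ratios scaling, -0.014 with DESeq2 and -0.11 with depth as a covariate, and miR-378a-3p was -0.013, -0.042 and -0.071. In S2Ba against SS on normal salt miR-365-3p was 0.088 with total-read scaling, 0.033 without the 2 shallowest libraries and 0.056 with depth, and miR-378a-3p was 0.093 with total-read scaling and 0.0055 with depth. In S2Bb against S2Ba on normal salt miR-365-3p was -0.041 with total-read scaling. In S2Bb against SS on high salt miR-365-3p was 0.033 with limma-voom, 0.025 without the 2 shallowest and 0.031 with depth. In S2Ba against SS on high salt miR-378a-3p was -0.0075 with edgeR. For salt responses, total-read scaling gave -0.049 for miR-378a-3p and -0.036 for miR-378b in S2Ba minus SS and 0.088 for miR-378b in S2Bb minus S2Ba, where edgeR gave 0.031. The ratio of miR-365-3p to miR-193-3p for diet in SS was 0.071 with the identical library counted as SS. The cause was not tested. Total-read scaling moved the median over all tested microRNAs from -0.046 to 0.12 for S2Ba against SS on normal salt, from 0.053 to -0.096 for S2Bb against S2Ba on normal salt, from -0.016 to 0.13 for diet in SS, from 0.072 to -0.096 for the S2Ba minus SS response and from -0.011 to 0.097 for the S2Bb minus S2Ba response.

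Leaving out 1 library at a time, miR-378a-5p ran from -0.0030 to 0.28 for diet in SS, -0.21 to 0.25 for diet in S2Ba, -0.051 to 0.41 for S2Ba against SS on normal salt, -0.20 to 0.26 for S2Bb against S2Ba on normal salt, -0.090 to 0.20 for S2Ba against SS on high salt and -0.36 to 0.10 for the S2Ba minus SS response. MiR-365-3p ran from -0.15 to 0.037 for diet in S2Ba, -0.033 to 0.13 for diet in S2Bb, -0.23 to 0.033 for S2Ba and -0.090 to 0.17 for S2Bb against SS on normal salt, -0.34 to 0.025 for S2Bb against SS on high salt and -0.39 to 0.0094 for the S2Bb minus SS response. MiR-378a-3p ran from -0.19 to 0.15 for diet in S2Ba, -0.056 to 0.15 for diet in S2Bb, -0.36 to 0.047 for S2Ba and -0.071 to 0.27 for S2Bb against SS on normal salt, -0.052 to 0.19 for S2Ba against SS on high salt, -0.020 to 0.39 for the S2Ba minus SS and -0.11 to 0.24 for the S2Bb minus S2Ba response. MiR-378b ran from -0.35 to 0.0034 for diet in S2Ba, -0.20 to 0.29 for S2Ba against SS on normal salt, and -0.095 to 0.40, -0.13 to 0.32 and -0.28 to 0.072 for the responses of S2Ba minus SS, S2Bb minus SS and S2Bb minus S2Ba. The arm ratio of miR-378a ran from -0.053 to 0.22 for diet in S2Ba, -0.44 to -0.24 for diet in S2Bb, -0.019 to 0.29 for S2Bb against SS and -0.35 to -0.078 for S2Bb against S2Ba on normal salt, and on high salt -0.12 to 0.11 for S2Ba against SS, -0.72 to -0.50 for S2Bb against SS and -0.74 to -0.49 for S2Bb against S2Ba. In 4 of 192 such tests a ratio passed, all given in the report, and the ratio of miR-365-3p to miR-193-3p for diet in SS ran from -0.65 to 0.095.

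The number of microRNAs called over all tested changed more with the setting. It was 0 to 13 for diet in SS (5 as reported), 0 to 25 in S2Ba (4) and 12 to 63 in S2Bb (29). On normal salt it was 0 to 19 for S2Ba against SS (2), 0 to 11 for S2Bb against SS (4) and 8 to 48 for S2Bb against S2Ba (17). On high salt it was 0 to 30 (1), 0 to 3 (0) and 0 to 32 (0), and for the salt responses 0 to 3 in S2Ba minus SS (0), 1 to 7 in S2Bb minus SS (2) and 0 to 1 in S2Bb minus S2Ba (0). No paired analysis was possible because the labels give animal numbers and no shared replicate numbers. Depth limits miR-378a-5p most, with 44 reads in its poorest library. At least 1 of the 2 shallow libraries enters every comparison with SS, and both enter diet in SS and the salt responses taken against SS.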
